A study of Mus musculus with 2 samples.

Results

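Among the cells of a droplet library that was labelled liver but whose file name says Spleen, 204 barcodes carried the RNA of the complement protein C1q and almost none of the lymphocyte receptors. A barcode, the tag of 1 droplet, was taken when C1qa, C1qb and C1qc together had at least 5 UMIs (unique molecular identifiers, each standing for 1 captured RNA molecule), when Cd79a and Cd79b together had at most 1 UMI, and when Cd3d, Cd3e and Cd3g together had at most 1 UMI. Of the 219 barcodes that met this rule, 15 had no dominant hashtag and were left out. The 204 members stand among 9591 barcodes of their library and 14421 of the series. The members were chosen by their C1q UMIs, so C1q levels are given below as a description only. At the edge of the rule, 3 vehicle, 7 low dose and 7 high dose members had exactly 5 C1q UMIs, and 6, 5 and 7 barcodes stood just outside it with 4.

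The mice were female BALB/cAnNCrl, 7 to 8 weeks old, with liver metastases of the 4T1 mammary carcinoma line seeded through a hemisplenectomy. Vehicle or CBL0137, a DNA-binding curaxin that impairs the histone chaperone FACT, was infused through the hepatic artery, the drug at a low or at a high dose whose amounts the labels do not give. Cells of 2 mice were pooled per group and taken 5 days after treatment, and the 3 groups were marked with hashtag antibodies and run in the same droplet library. The labels name leukocytes after red cell lysis, the study's methods a CD11b bead selection, and either can set the shares of macrophages below. Each group was thus 1 pooled sample with no replicate, so no test between groups was possible. Intervals are exact 95% intervals, or Newcombe's 95% interval for a difference of 2 shares, and cover counting error only and leave out the spread between mice.

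C1q is the recognition subunit of the classical complement pathway, and tissue macrophages are its main source. In the spleen the macrophages of the red pulp engulf aged red cells, open the heme ring with heme oxygenase Hmox1 and return the iron to plasma through ferroportin, Slc40a1. Their development depends on the transcription factor Spi-C (Spic), and they carry the adhesion molecule Vcam1. The marginal zone, which lies around the white pulp, holds macrophages marked by the scavenger receptor Marco.

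The group of each member rests on the hashtag antibody that bound it. These 15-base sequences are shown because they tie a barcode to vehicle, low dose or high dose. That A0305 marks the low dose rests on the labels, since the study's methods list the 3 hashtags without assigning a dose to any. A hashtag was called dominant with at least 10 UMIs and at least 3 times the next hashtag.
A0301, vehicle: ACCCACCAGTAAGAC
A0305, low dose: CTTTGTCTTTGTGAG
A0310, high dose: CCGATTGTAACAGAC

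The 250 bases before the start of C1qb, Spic and Marco are shown because C1qb chose the members, Spic defines the red pulp lineage and Marco had the largest low dose ratio of the spread genes described below. They come from RefSeq (GRCm38.p6), read 5′ to 3′ on the minus strand, which is the strand of all 3 genes. Of the 6 markers with C1qc and Marco, 4 of 8 had an entry in the promoter table used here. Capitals mark GAGGAA, the core bound by the ETS factors PU.1 and Spi-C, on either strand.
C1qb (chr4:136886201-136886450): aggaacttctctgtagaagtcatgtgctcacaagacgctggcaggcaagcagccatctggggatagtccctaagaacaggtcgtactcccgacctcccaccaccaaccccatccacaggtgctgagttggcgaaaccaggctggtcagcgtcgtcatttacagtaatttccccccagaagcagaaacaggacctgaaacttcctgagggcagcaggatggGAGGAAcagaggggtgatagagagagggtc
Spic (chr10:88683024-88683273): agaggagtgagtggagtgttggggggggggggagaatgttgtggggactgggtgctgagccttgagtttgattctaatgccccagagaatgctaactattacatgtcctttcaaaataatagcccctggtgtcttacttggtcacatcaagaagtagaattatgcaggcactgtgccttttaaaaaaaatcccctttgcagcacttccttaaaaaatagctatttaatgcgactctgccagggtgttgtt
Marco (chr1:120505025-120505274): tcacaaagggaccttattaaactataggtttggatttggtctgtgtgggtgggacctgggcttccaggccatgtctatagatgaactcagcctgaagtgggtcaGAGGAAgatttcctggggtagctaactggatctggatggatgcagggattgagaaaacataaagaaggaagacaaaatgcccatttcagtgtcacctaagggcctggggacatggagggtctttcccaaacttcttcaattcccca
C1qb and Marco each held 1 match and Spic held 0, and 23.3% of the 32851 windows of this length held the core. The AP-1 motif TGAGTCA, which 4.46% of all windows held, was matched in none of these 3. A match of letters is no proof of binding.

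The label was checked against its markers. A UMI of Spic or Vcam1 was present in 174 of 204 members (85.3%, 79.7 to 89.9), and 187 of 204 had a UMI of at least 2 of Spic, Vcam1, Hmox1, Slc40a1 and Cd5l. These shares were alike in the groups, at 84.3% in vehicle, 87.0% at the low dose and 84.2% at the high dose for Spic or Vcam1. Clec4f, which defines the Kupffer cells of the liver, had 0 UMIs in the members and in the rest of their library, and all 8 hepatocyte genes had 0 UMIs in the members. The Kupffer list (7 genes, Timd4 the most abundant, Clec4f and Cdh5 at 0) summed to 74.3, 81.0 and 68.1 CPM. Vcam1, Spic, Hmox1 and Slc40a1 were thus present where Clec4f and Alb were not, so the markers went with the file name and against the label. All 8 monocyte genes had a UMI in the members (Plac8 the most abundant) and summed to 2405, 759 and 2537 CPM, against 1802, 1352 and 1174 CPM in the other barcodes. A UMI of Ly6c2 or Ccr2, which mark monocytes, was seen in 13 of 204 members. Of these 13 monocyte-marked barcodes 9 were vehicle, 2 low dose and 2 high dose, and they held 45.8%, 16.7% and 26.8% of their group's member UMIs. Values without them, a choice made after seeing the data, are given below where they change a result.

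The 12 genes with the largest fold over the other barcodes, among genes with at least 200 UMIs in the members, were C1qa, C1qb, C1qc, Vcam1, Hmox1, Spic, Cd5l, Axl, Mrc1, Fcna, Sdc3 and Marco. In CPM (a gene's UMIs per 1000000 UMIs of the group), C1qa stood at 2348 in vehicle, 2946 in low dose and 2119 in high dose members, against 21.4, 16.6 and 8.91 in the other barcodes of each group. Vcam1 stood at 1464, 1276 and 885 CPM in the members, against 13.7, 9.22 and 3.20 in the other barcodes. Cd5l, a secreted macrophage protein of the scavenger receptor family, stood at 636, 564 and 681 CPM against 4.42, 3.09 and 2.39. In every group the members lay far above the rest of the library for these genes. Fcna, the lectin ficolin A, stood at 909, 1036 and 807 CPM, and the mannose receptor Mrc1 at 357, 415 and 418 CPM. For both, the intervals of the ratios to vehicle included 0. Marco stood at 10.6 CPM in vehicle, 1276 in low dose and 194 in high dose members, and the ratios of Hmox1, Spic, Axl and Vcam1 are given below.

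**Figure D1:**
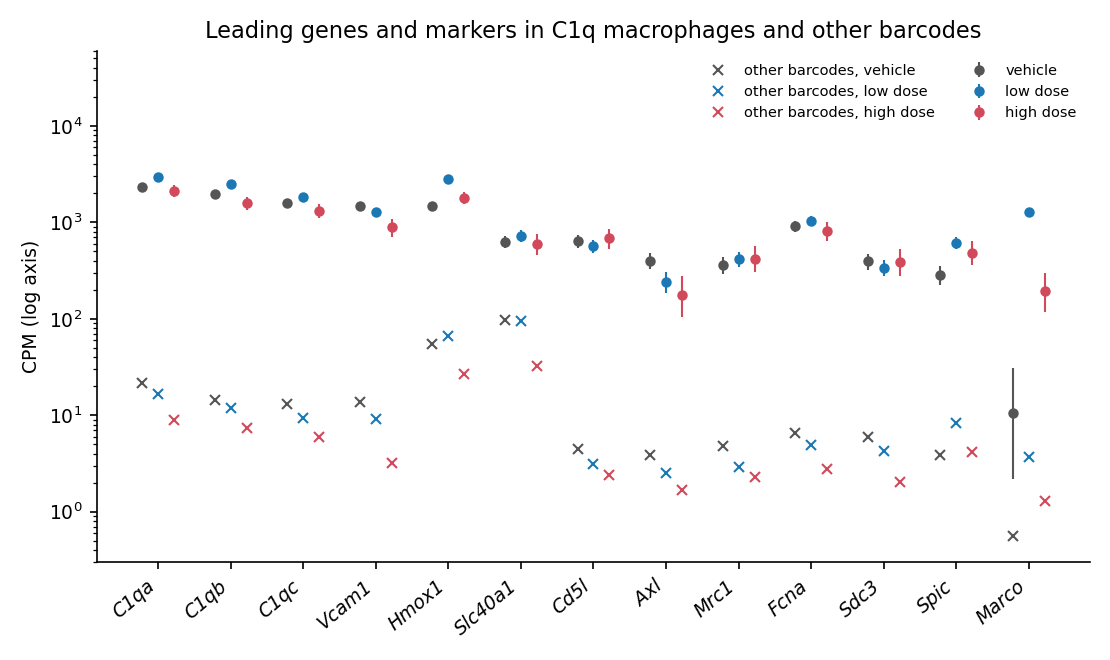
CPM on a log axis of the leading genes and markers in the C1q macrophages (circles, with exact 95% Poisson intervals for counting error) and in the other barcodes of the same library (crosses), by group. Circles lie above crosses for each gene, and Marco stands at 10.6 CPM in vehicle and 1276 CPM in low dose members.

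Members made up 89 of 3360 vehicle barcodes (2.65%, 2.13 to 3.25), 77 of 3408 low dose barcodes (2.26%, 1.79 to 2.82) and 38 of 2143 high dose barcodes (1.77%, 1.26 to 2.43). The share was lowest at the high dose. The difference from vehicle was -0.876 percentage points (-1.64 to -0.060) at the high dose and -0.389 points (-1.14 to 0.352) at the low dose. The high dose interval lay just below 0 and the low dose interval included 0. Under 9 of the 12 alternatives run for the share, the high dose interval included 0 as well. With hashtags called by HTODemux the shares were 1.77%, 1.28% and 1.64%, and the low dose then had the lowest.

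The members were shallow, with a median of 1191 UMIs in vehicle, 1304 in low dose and 936 in high dose, where the medians of all assigned barcodes of these groups were 4440.5, 4566.5 and 4806. The median C1q count was 12, 20 and 9 UMIs. A few deep barcodes held much of the RNA. Over 10000 UMIs were found in 9 vehicle, 8 low dose and 2 high dose members, and these 19 barcodes held 50.1%, 59.1% and 50.5% of the members' UMIs. Of the 19, 12 had less than 0.1% of their UMIs in C1q, and 12 had a UMI of Spic or Vcam1. The deepest high dose barcode had 33326 UMIs, or 32.4% of its group, with 5 C1q UMIs, and S100a8 and S100a9, the calprotectin genes of neutrophils, took 16.6% of its UMIs. Values without these 19 barcodes, a limit chosen after seeing the data, are therefore given below.

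**Figure D2:**
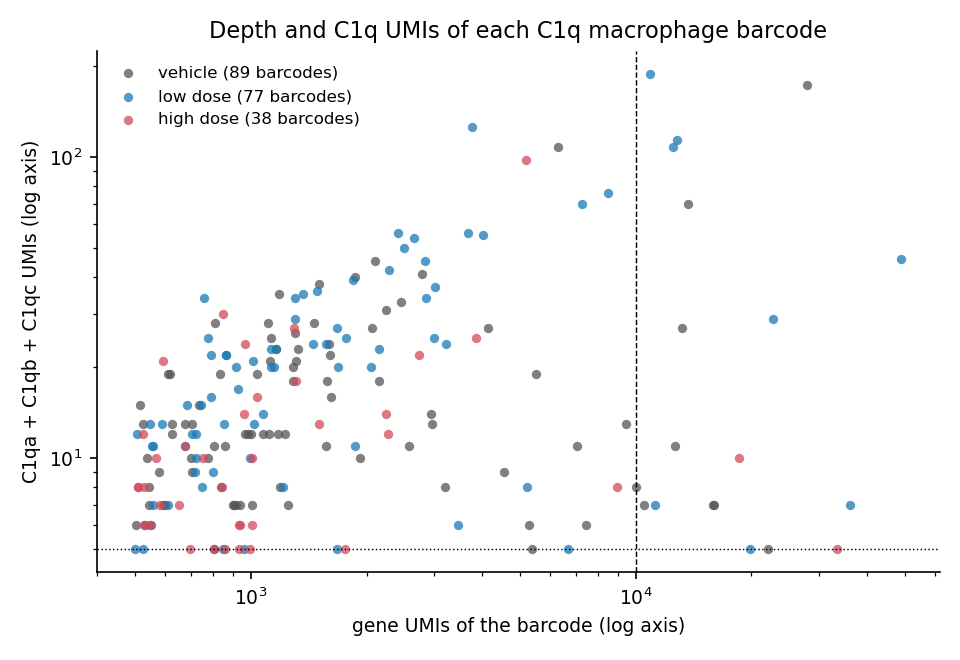
Each point is 1 C1q macrophage barcode, with its gene UMIs (x, log axis) against its C1qa, C1qb and C1qc UMIs (y, log axis), by group. The dotted line marks the smallest count of the rule, 5 UMIs, and the dashed line 10000 UMIs, to the right of which lie 9 vehicle, 8 low dose and 2 high dose barcodes.

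Genes were compared on UMIs summed over the members of a group, where at least 50 UMIs were present over both groups, with the C1q and lymphocyte genes of the rule left out. At the low dose 1542 genes were compared, of which 71 (4.6%) were at least 2-fold higher than in vehicle and 69 (4.47%) at least 2-fold lower, 9.08% in all, and the median log2 ratio was -0.05. At the high dose 996 genes were compared, of which 72 (7.23%) were at least 2-fold higher and 84 (8.43%) at least 2-fold lower, 15.7% in all, and the median was 0.09. With ratios centred on that median, 53 were higher and 96 lower. Both comparisons share the vehicle cells. Single barcodes weighed heavily on these calls: of the 72 genes higher at the high dose, 43 had over 50% of their UMIs in 1 barcode. A gene was called spread when no barcode of the higher group held over 25% of its UMIs, at least 10 members of that group had a UMI and the 2-fold difference held without the 19 deep barcodes, a rule set after seeing the values. By this rule 22 genes were higher and 23 lower at the low dose, and 2 were higher and 37 lower at the high dose. Few higher genes could meet it at the high dose, where 149 of the 996 compared genes met its first 2 conditions, against 899 for the lower direction. All of the 37 but Paip2 also had a high dose ratio below 0 in the other barcodes. Cxcr2, Asprv1 and Ifitm1 stood at 295, 401 and 3736 CPM there, against 182, 227 and 2185 CPM in the members. Others, such as Axl (2.87 against 296 CPM), stood lower there. Cxcr2 and Asprv1 had 0 high dose UMIs, so their ratios are bounds. The part of other cells' RNA in the 37 was not tested.

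**Figure D3:**
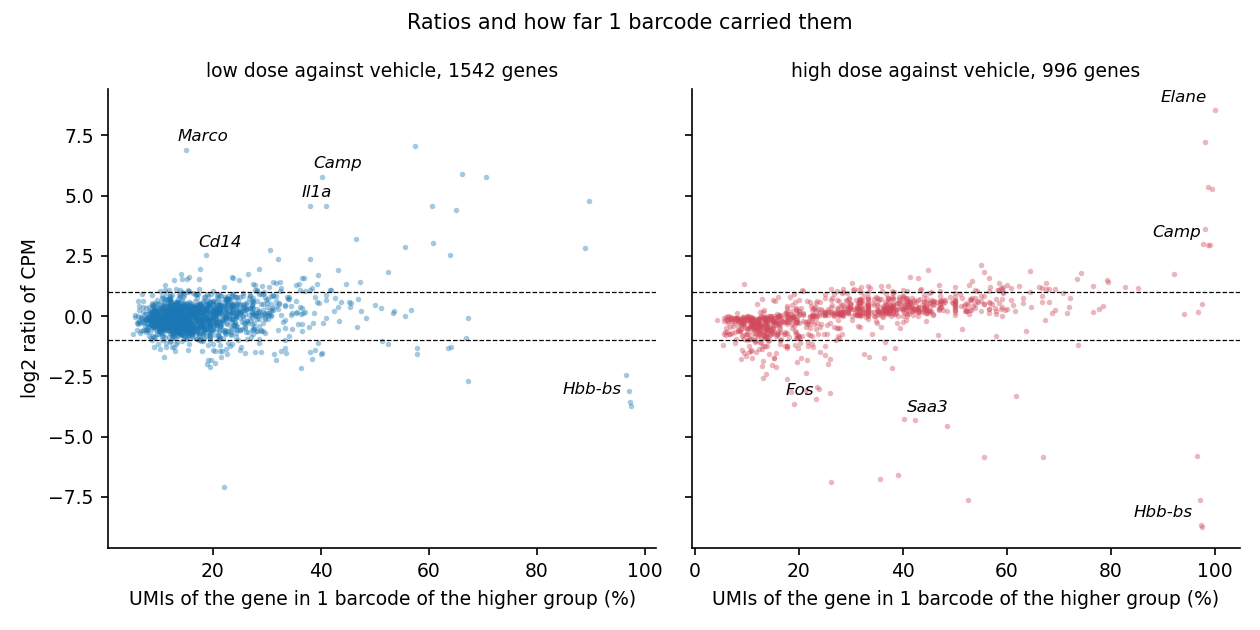
Log2 ratio of CPM against vehicle (y) of each gene compared, at the low dose (left, 1542 genes) and the high dose (right, 996 genes), against the percentage of the gene's UMIs held by 1 barcode of the group where it is higher (x). Dashed lines mark 2-fold. Marco and Cd14 lie at the left of the low dose panel, while Elane, Camp and Hbb-bs lie at the right, near 100%, of the high dose panel.

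Marco, which binds bacteria and modified lipoproteins, set the low dose members apart. It had 3 UMIs in vehicle, 378 in low dose and 20 in high dose members. At least 1 UMI was seen in 3 of 89, 32 of 77 and 5 of 38 members, and with each member thinned to 500 UMIs in 0 of 89 (0%), 22 of 77 (28.6%) and 5 of 38 (13.2%). The low dose ratio was 6.91 on the log2 scale (5.35 to 9.19), the same without the deep barcodes, and no barcode held over 15.1% of the low dose UMIs. Of the 32 Marco members of the low dose, 30 also had a UMI of Spic or Vcam1, near the share in all low dose members, 67 of 77. In the other barcodes Marco stood at 0.557, 3.66 and 1.28 CPM. With fewer than 50 UMIs over high dose and vehicle, Marco was not compared at the high dose, where 1 barcode held 70.0% of its UMIs. The marginal zone list (4 genes, Marco the most abundant) had 27, 429 and 36 UMIs in the members. Nr1h3 had 23, 49 and 14 of these, so the other list members, Cd209b and Siglec1, had next to none. Whether the Marco members are marginal zone macrophages was not tested.

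Cd14, Sod2 and Il1a also stood higher at the low dose, of which Cd14 and Sod2 met the rule for spread genes and Il1a did not. Cd14, the co-receptor for lipopolysaccharide, had 31, 186 and 9 UMIs, or 110, 628 and 87.5 CPM, with a low dose ratio of 2.52 (1.96 to 3.12) and of 3.36 without the deep barcodes. Sod2, the mitochondrial superoxide dismutase, had 26, 92 and 17 UMIs, with a low dose ratio of 1.76 (1.11 to 2.44). That ratio passed 2-fold under 15 of 16 alternatives and was 0.41 at its lowest. Il1a, the alarmin interleukin-1 alpha, had 2, 50 and 1 UMIs, seen in 2, 22 and 1 members, with a low dose ratio of 4.58 (2.65 to 7.66), and 1 barcode held 38.0% of the low dose UMIs. For all 3 genes the low dose stood above both other groups. Pou2f2, the octamer factor Oct-2, had 29, 119 and 12 UMIs with a low dose ratio of 1.97, and Bcl2a1a, an anti-apoptotic gene of the Bcl2 family, had 13, 39 and 4 UMIs with a ratio of 1.52. The spread genes higher at the low dose also held Acp2 (a lysosomal phosphatase, log2 1.62), Sdc4 (a heparan sulfate proteoglycan, 1.60), the chemokine Ccl9 (1.59), the thioredoxin reductase Txnrd1 (1.00) and Nr1h3 (the oxysterol receptor LXR alpha, 1.02). Among members without a Spic or Vcam1 UMI the ratios of Sdc4 and Txnrd1 were below 0, at -2.18 and -0.59. These were 14 vehicle and 10 low dose members, and Sdc4 and Txnrd1 had only 16 and 20 vehicle UMIs over all members. The ratio of Nr1h3 was -0.21 with members thinned to 1000 UMIs and 0.62 without the monocyte-marked barcodes.

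Of the NF-kB inflammatory list (16 genes such as Il1b, Tnf and Nfkbia), 5 genes were compared at the low dose, and 2, Il1a and the chemokine Ccl4, were at least 2-fold higher and 0 lower, beside 4.6% and 4.47% of all genes compared, with a list median of 0.90. Il1a and Ccl4 each had 2 vehicle UMIs, so they reached the UMI limit for comparison only through their low dose UMIs. Neither could have been called lower, so the counts of the list cannot be weighed against those shares. The other compared genes of the list passed 2-fold in neither direction. Ccl4 (log2 4.79) had 89.7% of its low dose UMIs in 1 barcode. Nfkbia, the feedback inhibitor of NF-kB, had 74, 145 and 17 UMIs, a low dose ratio of 0.90 (0.49 to 1.33) and a high dose ratio of -0.66 (-1.52 to 0.11). Il1b, interleukin-1 beta, had 97, 168 and 4 UMIs, or 343, 567 and 38.9 CPM, and a high dose ratio of -3.14 (-5.05 to -1.74). At 500 UMIs per member Il1b was seen in 7.87%, 31.2% and 2.63% of members. Both genes stood highest at the low dose and lowest at the high dose when all members were summed, but among members without a Spic or Vcam1 UMI the low dose ratio was -2.44 for Il1b and -0.06 for Nfkbia. The other barcodes, in which neutrophil genes abound, held Il1b at 309, 564 and 43.5 CPM, levels close to those of the members, and its part in the members' values was not tested. Cd14 stood at 79.7, 90.4 and 31.4 CPM in those barcodes, against 110, 628 and 87.5 CPM in the members. Sod2 stood at 70.5, 93.8 and 72.6 CPM there, against 91.9, 310 and 165 CPM in the members. For these genes too, the part of that RNA in the members' values was not tested.

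**Figure D4:**
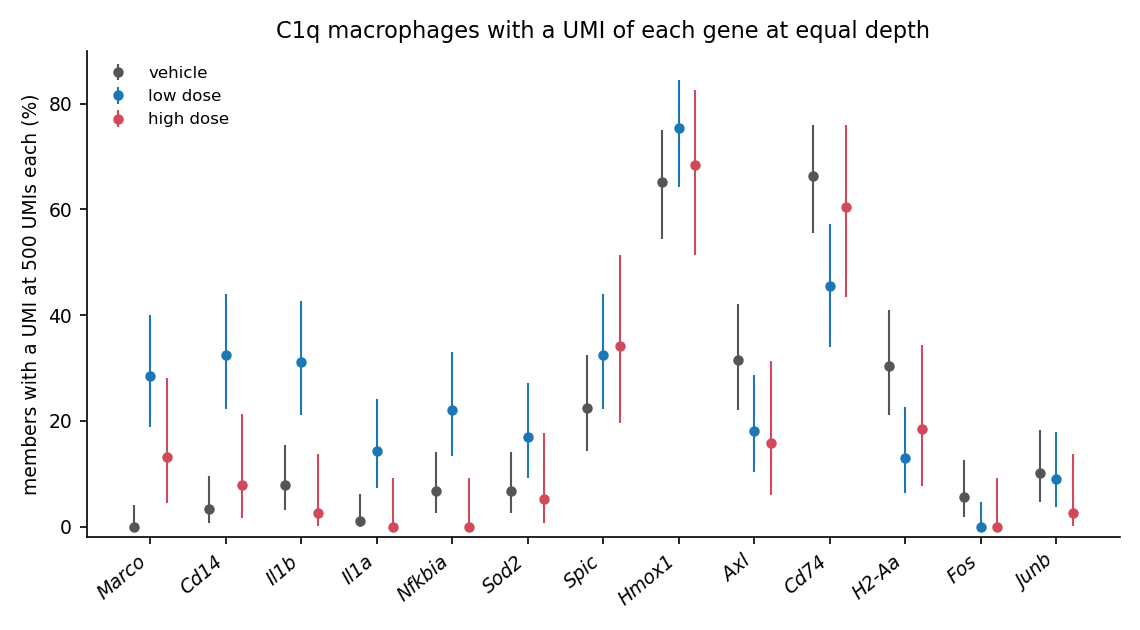
Percentage of members with at least 1 UMI of a gene after each member was thinned to 500 UMIs (y), by group, with exact 95% binomial intervals for counting error. For Marco, Cd14 and Il1b the low dose stands at 28.6%, 32.5% and 31.2%, above vehicle at 0%, 3.37% and 7.87%, and for Cd74 and H2-Aa it stands below vehicle.

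Of the 18 genes of iron and heme handling, 11 were compared at the low dose and 7 at the high dose, and 0 of them passed 2-fold at either, beside 9.08% and 15.7% of all genes compared, with medians of 0.27 and -0.08. Over the alternatives run, the low dose median lay between -0.22, without the monocyte-marked barcodes and with 0 of 10 genes past 2-fold, and 0.79, without the members rich in S100a8 and S100a9 and with 2 of 9 higher. Hmox1 had 419, 834 and 185 UMIs, or 1482, 2814 and 1799 CPM, with ratios of 0.93 (0.75 to 1.10) at the low dose and 0.28 (0.02 to 0.53) at the high dose. Slc40a1 stood at 626, 726 and 593 CPM, and Ftl1, the ferritin light chain, at 11931, 12665 and 11492 CPM. Hmox1 was highest at the low dose, where its ratio was 1.10 without the deep barcodes and 0.40 without the monocyte-marked ones, while Slc40a1 and Ftl1 differed little. Slc11a1, the phagosomal metal transporter, had 36, 69 and 12 UMIs and a low dose ratio of 0.87 (0.27 to 1.49).

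Of the 14 red pulp genes, 13 were compared at the low dose, with 1 higher and 0 lower by 2-fold and a median of 0.24, where 9.08% of all genes compared passed 2-fold. Over the alternatives run, the low dose median lay between -0.19, without the monocyte-marked barcodes and with 0 of 13 higher and 1 lower, and 0.89, without the members rich in S100a8 and S100a9 and with 4 of 12 higher. At the high dose 8 were compared, with 0 higher and 1 lower and a median of 0.05, where 15.7% of all genes passed. Both counts are near these shares. Spic was the gene higher at the low dose, with 80, 181 and 50 UMIs, or 283, 611 and 486 CPM, and ratios of 1.11 (0.72 to 1.51) and 0.78 (0.24 to 1.31). It was above vehicle at both doses, but its low dose ratio was below 2-fold with hashtags called by HTODemux (0.69) and without the monocyte-marked barcodes (0.53). Axl, a receptor kinase for the engulfment of dying cells, was the gene lower at the high dose, with 113, 71 and 18 UMIs, or 400, 240 and 175 CPM, a low dose ratio of -0.74 (-1.19 to -0.30) and a high dose ratio of -1.19 with an upper bound of -0.47. Axl was seen in 54 of 89, 28 of 77 and 11 of 38 members. Its high dose ratio passed 2-fold under 11 of 17 alternatives and was 0.057 among members without a Spic or Vcam1 UMI. Those were only 14 vehicle and 6 high dose members. Vcam1 had ratios of -0.20 (-0.40 to 0.01) and -0.73 (-1.07 to -0.40), so its high dose level lay below vehicle by less than 2-fold.

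MHC class II genes, which present antigen to CD4+ T cells, were lower at both doses, at the high dose by less than 2-fold once the deep barcodes were left out. Of the 9 genes on the list, 6 were compared, and 5 of the 6 were at least 2-fold lower at each dose, beside 4.47% and 8.43% of all genes compared, with medians of -1.53 and -1.72. Cd74, the invariant chain, had 1368, 437 and 141 UMIs, or 4837, 1475 and 1371 CPM. H2-Aa, an alpha chain, had 388, 141 and 44 UMIs and ratios of -1.53 (-1.82 to -1.25) and -1.68 (-2.17 to -1.23). H2-Ab1, H2-Eb1 and the peptide loader H2-DMa had low dose ratios of -1.53, -1.45 and -1.96 and high dose ratios of -1.78, -1.56 and -1.76. These 5 genes were lower together, while the sixth, the protease Ctss, had ratios of -0.04 and -0.02. Without the deep barcodes the 5 genes summed to 7256, 2928 and 5086 CPM, so the low dose level still lay well below vehicle, whereas the high dose list median moved from -1.72 to -0.25, with 0 genes past 2-fold. Without the members rich in S100a8 and S100a9 the low dose median was -0.93, with 2 of 6 genes past 2-fold. The monocyte-marked barcodes, which were most numerous in vehicle, moved with the groups in the same direction. Without them the medians were -0.99 at the low dose, with 3 of 6 genes past 2-fold, and -0.97 at the high dose, with 2 of 5, and Cd74 had ratios of -1.37 and -1.36. In the other barcodes Cd74 stood at 1330, 990 and 1422 CPM. Deep barcodes also carried part of the low dose counts, with 50.6% of its Cd74 UMIs in 1 barcode. At 500 UMIs per member H2-Aa was seen in 27 of 89, 10 of 77 and 7 of 38 members. MHC class I genes did not share this pattern, with 0 of 7 compared genes past 2-fold at the high dose and 1 of 8, the immunoproteasome subunit Psmb9 (log2 -1.01), lower at the low dose.

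Ccl24 (eotaxin-2), a chemokine for eosinophils, was lower at the low dose, with 102, 30 and 39 UMIs, or 361, 101 and 379 CPM, and a low dose ratio of -1.83 (-2.47 to -1.23). It was seen in 48 of 89, 16 of 77 and 19 of 38 members. The high dose level lay near vehicle, with a ratio of 0.07 (-0.50 to 0.62). Plac8, a monocyte gene, had 329, 98 and 171 UMIs and a low dose ratio of -1.81 (-2.16 to -1.49) that was -0.83 without the monocyte-marked barcodes, and at the high dose 53.8% of its UMIs lay in 1 barcode and its ratio moved from 0.52 to -1.47 without the deep barcodes.

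The AP-1 and immediate early genes, transcription factors and RNA regulators that cells switch on within minutes of a stimulus, were lower at the high dose when all members were summed. Of the 13 genes on the list, 8 were compared, and 7 of the 8 were at least 2-fold lower, beside 8.43% of all genes compared, with a median of -2.05, on 14 or fewer high dose UMIs for each of the 7. Fos had 68, 31 and 2 UMIs, seen in 18, 10 and 1 members, with a high dose ratio of -3.63 (-6.70 to -1.72). Jun had 64, 39 and 3 UMIs and a ratio of -2.96 (-5.27 to -1.34), and Junb had 156, 90 and 14 UMIs and a ratio of -2.02 (-2.92 to -1.23). The low dose lay between vehicle and high dose for each of these 3 genes. Jund, Ier2, Zfp36 and Klf6 had high dose ratios of -2.41, -1.49, -2.09 and -1.74, and Klf2 had -0.77. At the low dose 10 genes of the list were compared and 1, Fos (-1.20), was 2-fold lower, with a median of -0.44. The 8 genes summed to 2341, 1525 and 661 CPM in all members and to 2433, 1270 and 648 CPM without the deep barcodes. After thinning to 1000 UMIs per member, however, Fos had no high dose UMI left, so its value of 0.16 is an upper bound. Zfp36 (0.20) then rested on fewer than 50 UMIs. In several settings fewer than 3 genes of the list still had 50 UMIs over vehicle and high dose, so the list call was lost. These were thinning, C1q of 10 UMIs, and leaving out the deep barcodes, the monocyte-marked ones, the members with Spic or Vcam1, or the members rich in S100a8 and S100a9. In the other barcodes Fos stood at 281, 181 and 38.0 CPM and Junb at 594, 596 and 240 CPM, both lowest at the high dose, and the part of that RNA in the members' values was not tested.

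Serpina3g, a serine protease inhibitor, and Bin2, a membrane-bending protein of phagocytes, were the 2 spread genes that were higher at the high dose. Serpina3g had 35, 24 and 32 UMIs, or 124, 81.0 and 311 CPM, seen in 22 of 89, 19 of 77 and 23 of 38 members. Its high dose ratio was 1.33 (0.59 to 2.06), and 0.98 without the monocyte-marked barcodes. It was also higher at the high dose in the other barcodes, at 17.0, 16.5 and 64.2 CPM. Bin2 had 51, 88 and 39 UMIs, or 180, 297 and 379 CPM, with ratios of 0.72 (0.21 to 1.25) and 1.07 (0.43 to 1.70), the latter 0.58 without the monocyte-marked barcodes.

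Genes on the lists of other cell types made up 4 of the 12 largest ratios above vehicle and 5 of the 12 largest below it at the high dose. The 12 largest log2 ratios above vehicle at the high dose were Elane (8.56), Ms4a3 (7.24), Prtn3 (5.35), Ccl5 (5.29), Serpinb1a (3.63), Hmgn2 (3.00), Ngp (2.96), Camp (2.94), Cd63 (2.14), Cbx3 (1.92), AY036118 (1.89) and Ahnak (1.82). Elane and Prtn3 are proteases of granulocyte progenitors, and Ngp and Camp are granule proteins of young neutrophils. In the high dose members 1 barcode held 100% of the Elane UMIs, 98.7% of Prtn3, 98.7% of Ngp and 99.4% of Ccl5. Cbx3, a heterochromatin protein, was less concentrated, with a UMI in 13 members and a ratio of 2.05 without the deep barcodes. The 12 largest below vehicle were Hba-a2 (-8.75), Hbb-bs (-8.67), Stfa2 (-7.65), Hba-a1 (-7.62), Stfa2l1 (-6.89), Cstdc4 (-6.75), Retnlg (-6.60), Stfa3 (-5.85), Cstdc5 (-5.84), Hbb-bt (-5.79), Mxd1 (-4.54) and Saa3 (-4.32). Hemoglobin set 4 of them, and 97.3% of the vehicle Hbb-bs UMIs lay in 1 barcode. Hba-a1, with 1626 UMIs in vehicle, and Hbb-bt, with 456, had 0 in the high dose members, where 3 UMIs were put in their place, so that their ratios are bounds of at most -7.62 and -5.79. At the low dose the 6 largest above vehicle were Hist1h1b (7.07), Marco, Top2a (5.89), Mki67 (5.79), Camp (5.78) and Ccl4, of which Hist1h1b, Top2a and Mki67 had 57.4%, 66.1% and 70.7% of their UMIs in 1 barcode. The 6 largest below were Ccr2 (-7.10), Hba-a2 (-3.74), Hbb-bs (-3.58), Hba-a1 (-3.10), Ahnak (-2.68) and Hbb-bt (-2.42), and the 131 vehicle UMIs of Ccr2 came from 7 members.

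RNA of other cell types was present in the members at levels that differed between groups. The neutrophil list (12 genes, S100a9 the most abundant) summed to 74597, 150098 and 62863 CPM in the members and to 216731, 226695 and 127324 CPM in the other barcodes. The erythroid list (10 genes, Hbb-bs the most abundant, Epb42 at 0) summed to 27486, 2703 and 77.8 CPM in the members. The stem and progenitor list (8 genes, Prtn3 the most abundant, Cd34 and Gata1 at 0) summed to 103, 520 and 4540 CPM. S100a8 and S100a9 together passed 5% of the UMIs in 10 vehicle, 8 low dose and 1 high dose members, and hemoglobin passed 1% in 6, 5 and 0. These levels move with the groups beside the ratios above, and their part in those ratios was not tested, other than by leaving such members out. With the neutrophil-rich members left out, Marco, Cd14 and Il1a had low dose ratios of 7.24, 3.25 and 4.50, and Fos, Jun and Junb had high dose ratios of -1.60, -1.70 and -1.11. The AP-1 list then had a low dose median of 0.14 over 4 genes.

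Among the other lists the lysosome genes (16 of 18 compared at each dose) had medians of -0.02 and -0.28 with 0 genes past 2-fold, beside 9.08% and 15.7% of all genes compared. Their high dose median was -0.88, with 4 of 14 genes 2-fold lower, among members with a Spic or Vcam1 UMI. It was 0.57 among members without one and 0.26 at C1q of 10 UMIs. The oxidative phosphorylation genes (12 of 12) had medians of 0.15 and 0.47, with 1 gene higher at the high dose, beside 7.23% of all genes compared. The high dose median was 0.20 without the deep barcodes and 0.04 without the neutrophil-rich members, with 0 genes past 2-fold in each. The macrophage transcription factors (8 and 7 of 17) had medians of 0.24 and -0.82, with 2 genes, Spic and Nr1h3, higher at the low dose, beside 4.6% of all genes compared. Without the monocyte-marked barcodes 0 of 7 passed 2-fold at the low dose, and the high dose median was -0.28. It was -0.91 with ratios centred on the median of all genes. Cebpb, which drives myeloid genes, had a high dose ratio of -0.98. The type I interferon-stimulated list had 3 of 16 genes compared at each dose, and its medians of -1.07 and 1.15 pointed opposite ways, but 85.3% of the high dose UMIs of Ifi27l2a and 66.7% of Ly6e lay in 1 barcode. Of the suppressive effectors, Chil3, a chitinase-like protein, was 2-fold higher at the low dose (1.71) and lower at the high dose (-1.20), seen in 5, 8 and 1 members. Without the neutrophil-rich members 0 of 3 compared genes of that list were 2-fold higher at the low dose and 1 was lower. Among members with a Spic or Vcam1 UMI 0 of 3 were higher. Of the cholesterol efflux list, Pltp, a phospholipid transfer protein, had a low dose ratio of 2.35 that was 0.50 without the deep barcodes. Of the Fc receptors, 1 of 6 compared, Fcgr1 (-1.39), was 2-fold lower at the low dose, beside 4.47% of all genes. At the high dose 0 of 6 passed 2-fold, beside 15.7% of all genes. The efferocytosis receptors had medians of 0.06 and -0.14, and of those Axl alone passed 2-fold, as 1 of 4 compared at the high dose, beside 8.43% of all genes lower. FACT itself, whose subunits are Ssrp1 and Supt16, summed to 134, 186 and 214 CPM, on 38, 55 and 22 UMIs. The 7 genes of Z-nucleic acid sensing and necroptosis summed to 304, 196 and 301 CPM, with 0 genes reaching 50 UMIs.

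**Figure D5:**
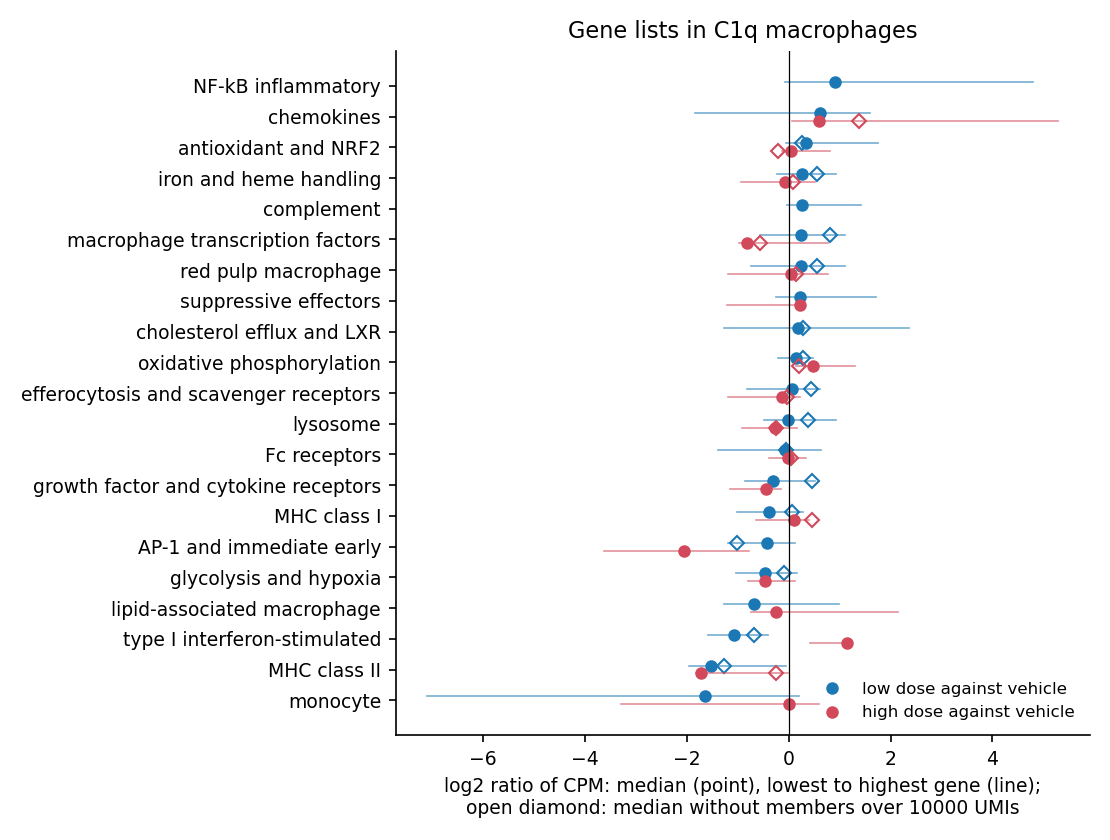
Log2 ratios of CPM against vehicle for each gene list with at least 3 genes compared, with the median (point) and the lowest and highest gene (line) at the low dose and the high dose. Open diamonds give the median without members over 10000 UMIs, where at least 3 genes were left. MHC class II lies at -1.53 and -1.72, AP-1 and immediate early at -0.44 and -2.05, and red pulp macrophage at 0.24 and 0.05, with 0.56 at the low dose without the deep members.

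The same rule in the library labelled spleen, whose file name says Liver, took 489 barcodes, of which 210 had a UMI of Clec4f. The 2 libraries of a group may come from the same mice, so they are set side by side without a test. Their C1q barcodes made up 7.20%, 8.42% and 13.6% of the assigned barcodes. Marco stood at 146, 1662 and 877 CPM there, and over all groups at 3121 CPM in the barcodes with Clec4f and 25.2 CPM in those without, while Spic stood at 41.0, 86.5 and 79.3 CPM and Hmox1 at 442, 951 and 938 CPM. The low dose stood above vehicle for Marco, Spic and Hmox1 in both libraries, and how far the share of Clec4f barcodes sets these values was not tested. Cd74 stood at 10046, 5981 and 3526 CPM there, and Cd14 at 474, 641 and 178 CPM. The low dose ratio of Cd14 was 0.44 in that library, against 2.52 here. The 15 barcodes that both libraries share included 0 of the 204 members.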

How the data were processed

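Cells of 2 pooled mice per group were hashtagged, and the deposited values are UMI counts as Cell Ranger filtered them, for genes and hashtags together, not normalized and without cell types. The matrix header names Cell Ranger 5.0.0, while the submitters' processing notes name Cell Ranger 6.0.0, Seurat and build mm10. The deposited counts sum to 79585807 gene UMIs over 9591 barcodes of the library labelled liver, with at least 500 per barcode and mitochondrial shares up to 98.9%. Gene UMIs were summed over the members of a group (282800 vehicle, 296340 low dose, 102859 high dose) and scaled to CPM.

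CPM carry exact Poisson intervals, shares Clopper-Pearson intervals, differences of shares Newcombe's interval and log2 ratios exact conditional binomial intervals, at 95%. With 1 pooled sample per group no test between groups was run, and called means at least 2-fold with at least 50 UMIs over both groups. A count of 0 was taken as 3 counts per group. The members and the 43 gene lists were chosen with earlier results of these data known. The genes named were the markers, the 12 leading genes, the 12 largest rises and falls at the high dose and 6 at the low dose, and genes of the lists; Pou2f2, Acp2, Sdc4, Ccl9, Bcl2a1a and Bin2 came from the rule on spread genes, set after seeing the values. Doublets were called with Scrublet (scanpy 1.11.5), and hashtags also with HTODemux (Seurat 5.3.0, R 4.3.3), as alternatives. The code that computes the ratios was checked on simulated data (scipy 1.17.1 and numpy 2.4.6 under Python 3.11.15).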

Additional observations from a re-analysis of the deposited data

Results flagged for a closer look

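The share of C1q barcodes was lower at the high dose than in vehicle in the library labelled liver, by -0.876 percentage points, and higher by 6.41 points in the library labelled spleen. Opposite directions in the 2 libraries drew attention to this and to each result below, and the difference between the libraries was not tested.

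Hemoglobin genes had log2 ratios below 0 here and above 0 in the other library. At the low dose they were -3.10 and 7.03 for Hba-a1, -3.74 and 7.22 for Hba-a2, -3.58 and 6.76 for Hbb-bs, and -2.42 and 7.17 for Hbb-bt. At the high dose they were -8.75 and 4.14 for Hba-a2 and -8.67 and 3.86 for Hbb-bs. Hba-a1 and Hbb-bt had 0 UMIs in the high dose members here, so that their values are bounds, at most -7.62 against 3.85 for Hba-a1 and at most -5.79 against 3.98 for Hbb-bt. In vehicle 1 barcode held 97.3% of the Hbb-bs UMIs here.

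Neutrophil stefin genes did the same at the high dose, with -6.75 and 1.49 for Cstdc4, -5.84 and 2.90 for Cstdc5, -7.65 and 3.45 for Stfa2, and -5.85 and 4.19 for Stfa3. The acute phase gene Saa3 had -4.32 here and 1.20 there at the high dose. Ccl4 had 4.79 here and -1.45 there at the low dose.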

How the results depend on the processing

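With 1 pooled sample per group, no replicate could be left out. No paired analysis was possible because no group had more than 1 sample. The differences in the share of members stayed within their intervals under all alternatives run. Leaving out members over 10000 UMIs, leaving out members with a Ly6c2 or Ccr2 UMI (monocyte-marked), and all alternatives for single genes at the low dose, were chosen after seeing the data. Scrublet marked 0 members, so that alternative left the gene and list values as they were and moved the shares only through their denominators, to 2.69%, 2.29% and 1.79%. Over the genes named, 1445 values under an alternative lay within the counting interval, 585 outside it with the same sign or below 2-fold at the start, and 40 had the opposite sign.

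The alternatives also changed how many genes could be compared, so each count stands with its number. Genes at least 2-fold higher at the low dose numbered 71 of 1542 (4.6%), and 45 of 1075 (4.19%) with a Spic or Vcam1 UMI required, 44 of 406 (10.8%) among members without one, 46 of 982 (4.68%) without neutrophil-rich members, 35 of 690 (5.07%) without deep members, 10 of 290 (3.45%) after thinning to 1000 UMIs, 122 of 1542 (7.91%) by the mean over cells, 229 of 3650 (6.27%) from 20 UMIs and 29 of 732 (3.96%) from 100 UMIs. Lower genes numbered 69 of 1542 (4.47%), and under the same settings, in that order, 31 of 1075 (2.88%), 107 of 406 (26.4%), 40 of 982 (4.07%), 38 of 690 (5.51%), 9 of 290 (3.1%), 102 of 1542 (6.61%), 233 of 3650 (6.38%) and 29 of 732 (3.96%), with 43 of 982 (4.38%) at C1q of 10 UMIs, 30 of 950 (3.16%) at C1q of 0.1% and 41 of 1263 (3.25%) at a hashtag 10 times the next. At the high dose 72 of 996 (7.23%) were higher, and 25 of 570 (4.39%) at C1q of 10 UMIs, 14 of 588 (2.38%) at C1q of 0.1%, 25 of 299 (8.36%) without Spic and Vcam1, 23 of 753 (3.05%) without neutrophil-rich members, 15 of 483 (3.11%) without deep members, 2 of 204 (0.98%) after thinning, 245 of 2614 (9.37%) from 20 UMIs and 24 of 513 (4.68%) from 100 UMIs. The lower genes, 84 of 996 (8.43%), became 42 of 570 (7.37%) at C1q of 10 UMIs, 34 of 299 (11.4%) without Spic and Vcam1, 36 of 753 (4.78%) without neutrophil-rich members, 43 of 483 (8.9%) without deep members, 20 of 204 (9.8%) after thinning, 330 of 2614 (12.6%) from 20 UMIs and 36 of 513 (7.02%) from 100 UMIs. They were 101 of 705 (14.3%) with Spic or Vcam1 required, 66 of 588 (11.2%) at C1q of 0.1% and 117 of 996 (11.7%) by the mean over cells. Lists with a median above 0 numbered 11 of 21 with at least 3 genes compared at the low dose, 3 of 11 without Spic and Vcam1 and 7 of 8 after thinning. They numbered 8 of 18 at the high dose, 3 of 16 with Spic or Vcam1, 4 of 17 at a hashtag 10 times the next, 3 of 7 after thinning, 2 of 13 without the monocyte-marked members, 5 of 18 each with the 20 most abundant genes left out and centred on the median, and 5 of 13 from 100 UMIs. The share was higher in other settings, at 10 of 13 with C1q of 10 UMIs, 10 of 14 with C1q of 0.1%, 11 of 16 without neutrophil-rich members and 6 of 9 without Spic and Vcam1. Without the monocyte-marked members, 26 of 1024 genes (2.54%) were lower at the low dose and 47 of 592 (7.94%) higher at the high dose.

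Among genes past 2-fold with all members, the sign turned for these. At the low dose without deep members, Camp was -1.55 and Ahnak 1.22, the latter on 1 vehicle and 2 low dose UMIs (-3.05 to 7.10). Camp was -0.67 without neutrophil-rich members, Nr1h3 -0.21 after thinning, and Hbb-bs 0.37, Sdc4 -2.18 and Txnrd1 -0.59 without Spic and Vcam1. At the high dose without deep members, Camp was -2.62, Hmgn2 -2.85, Ifi27l2a -0.34, Ngp -1.67 and Serpinb1a -0.12. Without neutrophil-rich members Camp was -1.19, Hmgn2 -0.97 and Prtn3 -0.70. At C1q of 0.1% Ahnak was -0.88, Ccl5 -1.46 and Hmgn2 -1.34, at C1q of 10 UMIs Hmgn2 was -1.33, and at C1q of 3 UMIs Camp was -2.30 and Ngp -0.51. After thinning AY036118 was -0.42, H2-Eb1 0.019, Ifi27l2a -0.22, Ly6e -0.10 and Zfp36 0.20. Fos then had no high dose UMI left, so its value of 0.16 is an upper bound and no turn of sign. Without Spic and Vcam1 Axl was 0.057 and Ngp -0.68, and with either required Ifi27l2a was -1.39 and Ly6e -0.12. Members without Spic and Vcam1 numbered 14 in vehicle, 10 at the low dose and 6 at the high dose. Values from them can rest on few UMIs. Hba-a1 had no UMI in the high dose members, so its value of 1.23 without Spic and Vcam1 is an upper bound and no turn of sign. Without the monocyte-marked members Ahnak was 1.90 at the low dose, and AY036118 -0.46, Ccl5 -2.43 and Ifi27l2a -1.39 at the high dose. With both doses together Ifi27l2a was -0.27, Il1b 0.33 and Saa3 0.49, and by the mean over cells Camp was -0.39. Named genes below 2-fold could turn as well. The low dose ratio of Il1b was 0.72 and its lowest value -2.44, that of S100a8 0.83 and -2.19 and that of Slc40a1 0.21 and -2.18. The high dose ratio of Plac8 was 0.52 and its lowest -1.62. For Ccr2 the high dose ratio was -0.49. Without deep members Ccr2 had 0 vehicle and 4 high dose UMIs, so its highest value, 1.88, is a bound on few UMIs. The median of the type I interferon list at the high dose was -0.50 with Spic or Vcam1 required, -0.67 without the monocyte-marked members and -0.27 with both doses together. The cause was not tested.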
